A study of Mus musculus with 75 samples.

Results

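The genes described here were low in the lungs of bleomycin-treated mice on day 14 and above the control level on day 42. The rule took protein-coding genes with a mean of at least 5 CPM (library-size scaled counts) over all libraries, used group means of log2(CPM + 1), and required a day 14 mean below and a day 42 mean above saline. Of 12018 protein-coding genes at that level, out of 55536 annotated genes, 1495 met both conditions, and the 100 with the largest value of the smaller of the 2 differences were taken. All 100 members passed the filter on low counts used for the tests, and no member fell under 4 counts in any library. The members were chosen by their CTRL, day 14 and day 42 values, so these are given as descriptions without a test. Days 7, 21, 28 and 35 entered only the minimum of 5 CPM over all libraries, not the direction or the ranking. They are called not used by the rule below, and only differences among these 4 days were tested.

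The series profiled poly(A) RNA of the inferior lung lobe from 75 male C57BL/6JRj mice, 1 library per mouse. Mice aged 12 to 14 weeks received 1 intratracheal instillation of bleomycin, an antibiotic that injures the alveolar wall and is used to model pulmonary fibrosis (BLEO-IPF mice), and only animals that had lost 5 to 17% of body weight by day 6 were randomized. BLEO-IPF lungs were taken on day 7 (n = 10), days 14, 21, 28 and 35 (n = 12 each) and day 42 (n = 7), each day from different mice. The control group (CTRL, n = 10) is labelled saline in the sample records, whereas the protocol text calls the controls untreated. Libraries held 9240291 to 14665247 counts, and no pair of libraries within a group agreed within sampling noise. An annotated gene whose own counts came to at least 10% of a member's overlapped 16 of the members, in 1 case on the same strand. Overlap refers to the whole gene span, and shared exons were not measured. Whether the counting used strand is not given in the sources used here.

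One library of day 28, mouse 10, stood apart in muscle and adipose genes. Its summed CPM was 2386 for 11 skeletal muscle genes and 1796 for 12 adipose genes, when the group medians of day 28 were 9.68 and 15.1. Its member mean of 0.03 lay inside the day 28 range. Without this mouse no member was called for day 28 against day 21, and none was called with it. The single call of day 35 against day 28 was lost, as it was in 16 of 24 fits that left out 1 mouse each. A day 7 library, mouse 8, had 799.7 CPM of adipose genes against a day 7 median of 24.4. Without it 40 members were called higher in edgeR on day 35 than on day 7, against 46 with it. Leaving out any 1 mouse of these days gave 38 to 46.

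Gas exchange surfaces of the lung are lined by flat alveolar type I (AT1) cells and cuboidal alveolar type II (AT2) cells. AT2 cells make surfactant, a film of phospholipids and surfactant proteins that is stored in lamellar bodies and released by regulated secretion, and they also serve as progenitors of AT1 cells. NKX2-1 is the transcription factor that maintains the identity of this epithelium and drives surfactant genes. Among the members were 4 of 12 AT2 marker genes (Sftpc, Sftpa1, Abca3 and Lpcat1), 2 of 10 AT1 marker genes (Ager and Akap5) and Nkx2-1 itself. Other members encode tight junction, vesicle transport, ion transport, basement membrane and secreted defense proteins of epithelia, and 5 are genes of immune cells. The samples are whole lobes, so fewer cells of a type and less RNA per cell cannot be told apart.

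Because most members moved together across mice, their proximal promoters were searched for letters bound by lung epithelial factors. RefSeq promoters of build GRCm38.p6 were matched by symbol for 79 of the 100 members. The promoters of 3 members that each hold a match are printed as the 250 bases before the transcription start, 5′ to 3′ on the strand of the gene, with the match in capitals. Abca3 on the plus strand (chr17:24351773-24352022) holds the NKX2-1 letters, Rab25 on the minus strand (chr3:88548280-88548529) the grainyhead letters, and S100g on the minus strand (chrX:162964600-162964849) the C/EBP and, nearer the start, the FOXA letters.
Abca3: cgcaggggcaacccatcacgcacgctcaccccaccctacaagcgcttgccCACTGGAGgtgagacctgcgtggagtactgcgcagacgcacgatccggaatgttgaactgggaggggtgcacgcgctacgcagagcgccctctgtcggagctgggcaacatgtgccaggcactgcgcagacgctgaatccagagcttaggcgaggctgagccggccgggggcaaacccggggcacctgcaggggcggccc
Rab25: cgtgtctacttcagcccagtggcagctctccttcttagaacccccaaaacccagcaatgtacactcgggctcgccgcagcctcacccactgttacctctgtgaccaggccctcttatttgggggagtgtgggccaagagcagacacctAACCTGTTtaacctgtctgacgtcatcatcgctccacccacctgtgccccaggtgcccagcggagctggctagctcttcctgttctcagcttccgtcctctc
S100g: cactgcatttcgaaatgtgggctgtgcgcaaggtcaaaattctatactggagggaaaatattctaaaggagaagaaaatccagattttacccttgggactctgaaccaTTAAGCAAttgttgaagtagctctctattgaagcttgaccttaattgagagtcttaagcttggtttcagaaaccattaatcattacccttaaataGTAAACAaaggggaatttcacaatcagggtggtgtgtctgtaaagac
Both strands were searched, with N standing for any base. The NKX2-1 letters CACTNNAG occurred in 11 of 79 members (13.9%) and in 13.6% of 9429 other genes of the same level. The C/EBP letters TTGCNNAA occurred in 6 members (7.59%) against 9.17% of the other genes. The FOXA letters TGTTTAC occurred in 7 members (8.86%) against 2.68%, and the grainyhead (GRHL) letters AACCNGTT in 4 members (5.06%) against 1.91%. These matches are descriptions of the letters and not evidence of binding, and none of the 4 motifs was present in most members.

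The depth of the decrease and the height of the overshoot were small for most members. The saline minus day 14 difference had a median of 0.29 on the log2(CPM + 1) scale (0.18 to 1.43), and the day 42 minus saline difference a median of 0.29 (0.19 to 0.71). The smaller of the 2 reached 0.70 for the top-ranked gene, Hc, and was at least 0.3 in 19 members. At the edge of the list, 0610040J01Rik (rank 99) was 0.18 below saline on day 14 and 0.30 above it on day 42, and Ripk4 (rank 100), a kinase of epidermal differentiation, was 0.18 below and 0.24 above. At the next 2 ranks outside, Krt23, a keratin, was 1.19 below and 0.18 above, and Elf3, an epithelial transcription factor, 0.18 below and 0.21 above. The lower edge therefore separates near-identical values.

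**Figure D1:**
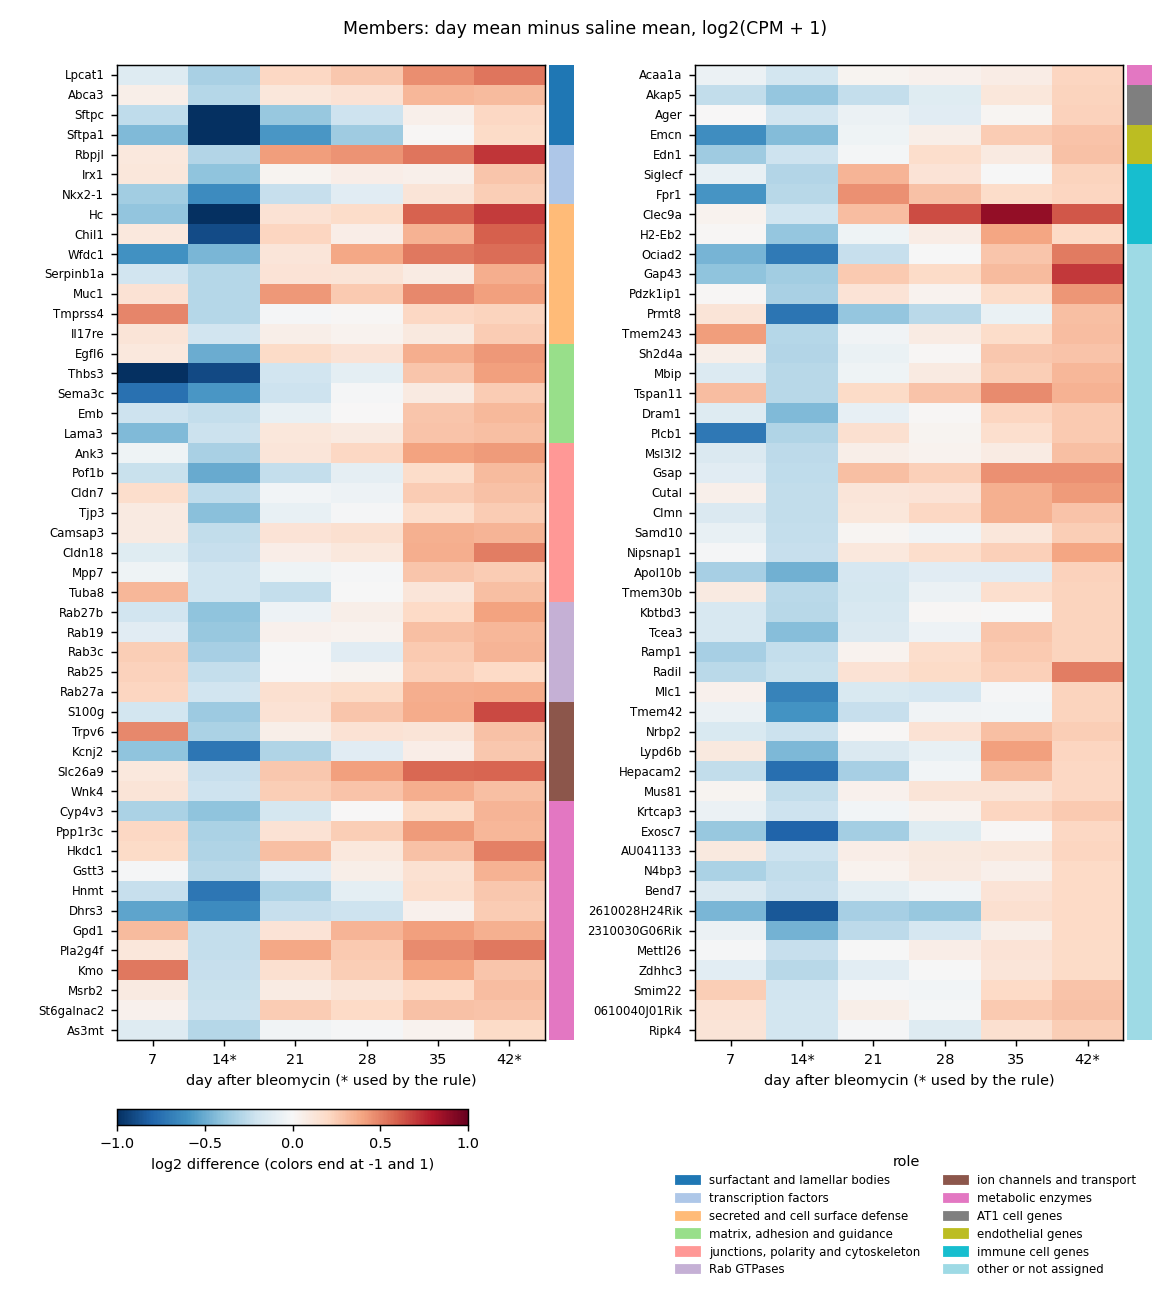
Heat map of 98 of the 100 members, with each row a gene and each column a day, colored by the day mean minus the saline mean on the log2(CPM + 1) scale (blue below, red above; side bars give the role). All genes are blue on day 14 and red on day 42 because the rule required it. On day 35, 92 of those drawn are above saline, compared with 51.9% of all genes at the level minimum. The rule did not use day 35 but did use the saline mean, so this count is a description without a test.

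The days between were free to vary. Group means of the members lay above saline for 43 of 100 members at day 7, 52 at day 21, 65 at day 28 and 94 at day 35. The shares of all 12018 genes at this level were 52.7% (day 7), 49.9% (day 21), 52.5% (day 28) and 51.9% (day 35), so that the count at day 21 was near the general share. Median differences from saline were -0.06 (day 7), 0.02 (day 21), 0.06 (day 28) and 0.23 (day 35), which share the saline mean of the rule and are given without a test. Among the 4 days that the rule did not use, day 35 had the highest mean in 81 members, compared with 28.8% of all genes at this level, and day 7 the lowest in 62 members, compared with 27.5%. For 67 members the mean increased in order over days 21, 28 and 35, as it did in 31.4% of all genes. Of the 7 groups, day 14 held the lowest mean in 87 members and day 7 in 12, while day 42 held the highest mean in 73 and day 35 in 19. The rule set day 14 below and day 42 above saline, so these 7-group counts partly restate it.

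Mice of the same day differed widely in the middle of the course. The mean of the 100 members, relative to the saline mean, ranged from -0.07 to 0.11 in CTRL mice, from -0.21 to 0.03 on day 7, from -1.05 to 0.14 on day 14, from -0.56 to 0.31 on day 21, from -0.47 to 0.33 on day 28, from 0.06 to 0.36 on day 35 and from 0.23 to 0.38 on day 42. The SD between mice was 0.40 (day 14), 0.29 (day 21) and 0.26 (day 28), but 0.06 (CTRL), 0.08 (day 35) and 0.05 (day 42). In the lowest day 14 mouse 98 of 100 members lay below their saline mean, whereas in the day 14 mouse with the fewest, 32 did. All 12 mice of day 35 lay above the saline mean, as did 2 of 12 on day 14, 8 of 12 on day 21 and 9 of 12 on day 28. These counts share the saline mean of the rule and are given without a test.

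**Figure D2:**
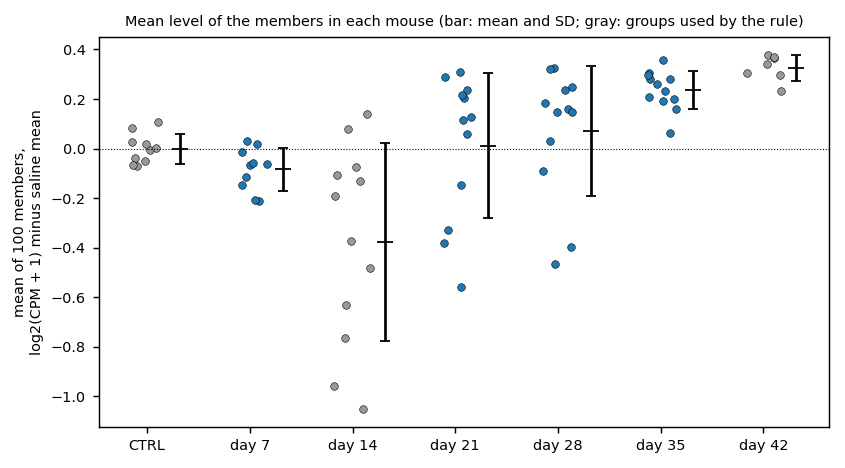
Mean of the 100 members in each mouse, in log2(CPM + 1) minus the saline mean, by group (1 point per mouse; bar, group mean and SD; gray, groups used by the rule). The points spread from -1.05 to 0.14 on day 14 and close up to 0.06 to 0.36 on day 35.

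Surfactant and lamellar body genes included the most abundant members. Sftpc (surfactant protein C, chr14:70520949-70524081, minus strand) had a saline level of 13385 CPM per kilobase of exon, against 1326 for Sftpa1 (surfactant protein A) and 91.7 for Lpcat1, the acyltransferase that forms saturated surfactant phosphatidylcholine. The lowest, median and highest Sftpc levels were 12035, 13708 and 15278 CPM in CTRL, 9171, 11697 and 18594 at day 7, 3195, 6690.0 and 13493 at day 14, 5323, 11677 and 18412 at day 21, 5794, 13390.1 and 17947 at day 28, 8592, 14791 and 17469.5 at day 35 and 13670.4, 16034 and 17977 at day 42. The day 14 mice reached from well below every CTRL mouse up into the CTRL range, and the ranges of days 7 and 35 overlapped. Sftpa1 had medians of 3720.0 CPM in CTRL, 2537 at day 7, 1509.7 at day 14, 2857 at day 21, 4115 at day 35 and 4297 at day 42. Both genes were 1.03 and 1.43 log2 units below saline on day 14 but only 0.20 and 0.20 above it on day 42.

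Lpcat1 followed another course. Its lowest, median and highest levels were 361, 416 and 488 CPM in CTRL, 317, 384 and 457 at day 7, 223, 349 and 597 at day 14, 288, 538 and 683 at day 21, 342, 510.3 and 688 at day 28, 439, 569 and 730.0 at day 35 and 527, 635 and 659.6 at day 42. The lowest day 42 mouse exceeded the highest CTRL mouse, a difference that the rule selected for. Days 7 and 35 overlapped only at their edges. Lpcat1 was higher on day 35 than on day 7 (edgeR quasi-likelihood test with Benjamini-Hochberg adjustment over 16221 genes, log2 fold change 0.60 ± 0.13 (SE), adjusted p = 2.75e-04). In that comparison 10.4% of all genes tested were called higher and 13.7% lower, the background for each count of members that follows. The other surfactant genes did not pass that test. Their log2 fold changes were 0.30 for Sftpc (edgeR adjusted p = 0.244), 0.44 for Sftpa1 (edgeR adjusted p = 0.133) and 0.27 for Abca3, the lipid transporter of the lamellar body membrane (edgeR adjusted p = 0.101).

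**Figure D3:**
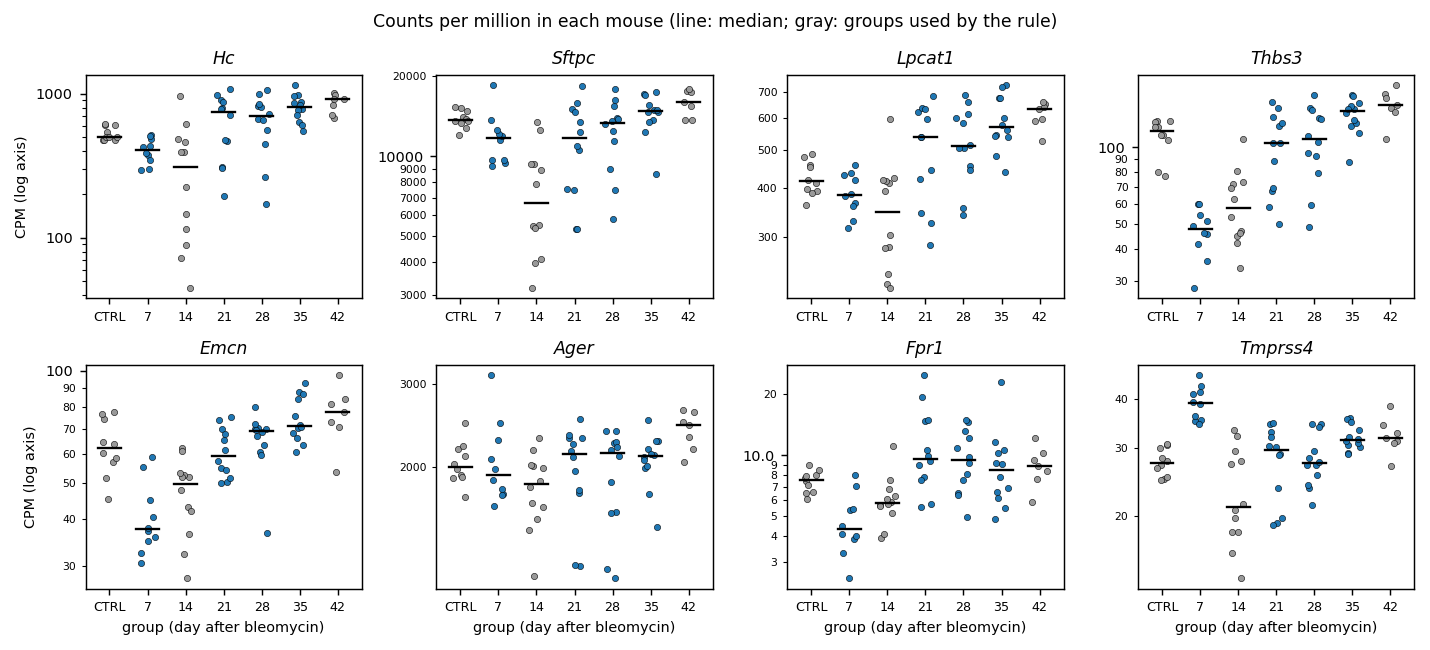
CPM of 8 members in each mouse on log axes, by group (1 point per mouse; line, median; gray, groups used by the rule). Hc, Sftpc and Lpcat1 scatter most on days 14 to 28, Thbs3 and Emcn have their lowest median on day 7, and Tmprss4 its highest.

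Nkx2-1 was measured at 153, 169.6 and 193 CPM (lowest, median, highest) in CTRL, 121, 134 and 152 at day 7, 83.5, 163 and 189.8 at day 21, 95.5, 179.9 and 211 at day 28, 166, 190.1 and 206 at day 35 and 187, 195 and 223 at day 42. The day 14 mice spread over 82.2 to 166 CPM. Every day 7 mouse was under every day 35 mouse, and the increase passed the edgeR test (log2 fold change 0.47 ± 0.12 (SE), adjusted p = 0.00197). Mbip, a neighbor of Nkx2-1 on the same chromosome, was also higher on day 35 than on day 7 (edgeR, 0.39 ± 0.10 (SE), adjusted p = 0.00168). Rbpjl, a transcription factor related to the Notch mediator RBPJ, rose by 0.45 (edgeR adjusted p = 0.0434), whereas Irx1, an Iroquois homeobox factor of lung development, was at -0.03 (edgeR adjusted p = 0.903). The Rbpjl call was lost in 13 of 22 fits that left out 1 mouse. Rbpjl shares its locus with Matn4 on the opposite strand, whose own counts came to 205% of those of Rbpjl. How many reads fall where the 2 genes overlap was not measured.

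The 2 top-ranked genes, Hc and Chil1, encode secreted proteins. Hc (chr2:34983331-35061438, minus strand), complement component C5, had lowest, median and highest levels of 477, 501 and 611 CPM in CTRL, 294, 408 and 516 at day 7, 44.8, 308 and 966 at day 14, 195, 750.1 and 1072 at day 21, 173, 694 and 1061 at day 28, 549, 806 and 1152 at day 35 and 677, 912 and 1012 at day 42. The day 14 mice lay both below and above the CTRL range. Every day 42 mouse exceeded every CTRL mouse, a difference that the rule selected for. The ranges of days 7 and 35 did not overlap. Hc was higher on day 35 than on day 7 (edgeR, log2 fold change 0.99 ± 0.29 (SE), adjusted p = 0.00813). Chil1, a secreted chitinase-like protein, spread from 61.7 to 1191 CPM on day 14 against 621 to 866 in CTRL, and its change of 0.25 from day 7 to day 35 did not pass (edgeR adjusted p = 0.558). Wfdc1, a secreted whey acidic protein domain protein, was already low on day 7. Its lowest, median and highest levels were 11.1, 23.7 and 35 CPM on day 7, 20.1, 41.2 and 54.2 at day 21, 35, 46.6 and 63.5 at day 28 and 39.4, 51.3 and 63.3 at day 35. Days 7 and 35 did not overlap, and Wfdc1 rose by 1.12 ± 0.16 (SE), adjusted p = 2.82e-07 in edgeR.

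Tmprss4, a membrane serine protease of epithelia, was the only one of 100 members called lower on day 35 than on day 7 in edgeR. Its levels were 24.8, 27.4 and 30.6 CPM (lowest, median, highest) in CTRL, 34.4, 39.1 and 46.1 at day 7, 19, 29.5 and 34.6 at day 21 and 28.9, 31.4 and 35.6 at day 35. All day 7 mice were above all CTRL mice, and the day 7 and day 35 ranges met at 1 edge (edgeR, log2 fold change -0.30 ± 0.10 (SE), adjusted p = 0.0225). Muc1, an epithelial cell surface mucin, was at 0.35 for day 35 against day 7 (edgeR adjusted p = 0.13), and Serpinb1a, an inhibitor of neutrophil proteases, at 0.28 (edgeR adjusted p = 0.0632).

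Of the matrix, adhesion and guidance members, 4 of 5 were higher on day 35 than on day 7, when 10.4% of all genes were. Thbs3 (chr3:89215180-89226837, plus strand), a thrombospondin of the extracellular matrix, had the largest change of all members. Its lowest, median and highest levels were 77.5, 116 and 127 CPM in CTRL, 28.2, 47.8 and 60.2 at day 7, 33.8, 58 and 107 at day 14, 50.2, 104 and 151 at day 21, 49, 108 and 161 at day 28, 87.6, 139 and 159.6 at day 35 and 108, 146 and 176 at day 42. Day 7 lay under CTRL and under day 35 without overlap, and its lowest median was on day 7 rather than day 14. The log2 fold change was 1.5 ± 0.17 (SE), adjusted p = 9.62e-10 for day 35 against day 7 and 1.12 ± 0.17 (SE), adjusted p = 2.61e-06 for day 21 against day 7, 2 edgeR comparisons that share the day 7 mice. The own counts of Mtx1, on the opposite strand, came to 23.8% of those of Thbs3. Sema3c, a secreted semaphorin, rose by 0.85 (edgeR adjusted p = 4.19e-05) and Lama3, the laminin alpha chain of epithelial basement membrane, by 0.72 (edgeR adjusted p = 0.00156). Egfl6, an epidermal growth factor-like matrix protein, did not pass (0.26, edgeR adjusted p = 0.339).

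Junction, polarity and cytoskeleton genes passed for day 35 against day 7 in 5 of 8 members, all higher (10.4% of all genes). Cldn18, the claudin of alveolar tight junctions, was at 747, 806 and 885 CPM (lowest, median, highest) in CTRL, 664, 748 and 934 at day 7, 469, 757 and 899.9 at day 14, 508, 944 and 1256 at day 28, 856, 1042 and 1227 at day 35 and 992, 1164 and 1261 at day 42. The day 42 and CTRL ranges were apart, a difference that the rule selected for. Those of days 7 and 35 overlapped slightly, and the change between these days passed (edgeR, 0.48 ± 0.10 (SE), adjusted p = 3.60e-04). Ank3, a membrane-cytoskeleton adaptor (ankyrin-G), rose by 0.45 (edgeR adjusted p = 0.0157), and Pof1b, an actin-binding protein, by 0.43 (edgeR adjusted p = 0.0276). The Pof1b call was lost without day 7 mouse 2, and that of Camsap3, a microtubule-binding protein, without day 7 mouse 3 or day 35 mouse 1. Cldn7, another claudin, was at 0.06 (edgeR adjusted p = 0.695) and Tjp3, a scaffold of tight junctions, at 0.09 (edgeR adjusted p = 0.63). The own counts of Apba3, on the strand opposite Tjp3, came to 124% of those of Tjp3. Those of Xab2, opposite Camsap3, came to 255% of those of Camsap3.

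Rab GTPases direct vesicle transport, and 5 were members. Rab27b and Rab19 were higher on day 35 than on day 7, with log2 fold changes of 0.41 ± 0.15 (SE), adjusted p = 0.0314 and 0.45 ± 0.15 (SE), adjusted p = 0.0202 in edgeR. The Rab27b call was lost in 5 of 22 fits that left out 1 mouse (day 7 mouse 4, 5, 8 or 10, or day 35 mouse 9). Rab27a, which like Rab27b acts in regulated secretion, was at 0.16 (edgeR adjusted p = 0.214), Rab25, a Rab of epithelial recycling endosomes, at 0.01 (edgeR adjusted p = 0.98) and Rab3c, a Rab of secretory vesicles, at 0.02 (edgeR adjusted p = 0.962). Rab3c was low and variable, at 3.07 to 13.5 CPM in CTRL, 4.77 to 13.2 at day 7 and 4.56 to 15.8 at day 35, overlapping ranges.

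Of the ion transport members, 4 of 6 were higher on day 35 (10.4% of all genes), and 2 of these calls, S100g and Kcnj2, were lost in some fits that left out 1 mouse (3 and 14 of 22 fits). Slc26a9, an epithelial chloride transporter, ranged over 31 to 48.6 CPM on day 7 and 47.5 to 70.3 at day 35, ranges that barely met, with a log2 fold change of 0.48 ± 0.12 (SE), adjusted p = 0.0014 in edgeR. S100g, the calcium-binding protein calbindin-D9k, rose by 0.57 (edgeR adjusted p = 0.0265). S100g lies opposite Ctps2, whose own counts came to 156% of those of S100g. The calcium channel gene Trpv6 went the other way without passing (-0.41, edgeR adjusted p = 0.0564).

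Of the metabolic enzymes, 2 of 13 were called, both higher, which is near the background of 10.4% of all genes. Cyp4v3, a fatty acid hydroxylase, had lowest, median and highest levels of 33.4, 46.9 and 53.6 CPM on day 7 and 53.6, 63 and 76.3 at day 35, ranges that lay next to each other without overlap (edgeR, 0.51 ± 0.10 (SE), adjusted p = 1.05e-04), and Dhrs3, a retinal reductase, rose by 0.55 (edgeR adjusted p = 0.00114). The hexokinase-like Hkdc1 (0.12, edgeR adjusted p = 0.62) and Ppp1r3c, a glycogen-targeting subunit of protein phosphatase (0.23, edgeR adjusted p = 0.366), did not pass.

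Of the AT1 genes, Ager, the receptor for advanced glycation end products and a hallmark of AT1 cells, did not pass between days 7 and 35. Its ranges were 1651 to 3130.4 CPM on day 7, 1231 to 2523 at day 21, 1158 to 2378 at day 28 and 1486 to 2513 at day 35, all overlapping, and its log2 fold change for day 35 against day 7 was -0.00 ± 0.12 (SE), adjusted p = 0.981 in edgeR. Akap5, a kinase anchoring protein, rose by 0.36 ± 0.12 (SE), adjusted p = 0.0172 in edgeR. Of the AT1 genes that were not members, 1 of 8 was below saline on day 14 and above it on day 42, the share of all genes at this level being 12.4%. Of the AT2 genes that were not members, 6 of 8 were, which is given without a test. These counts use the CTRL, day 14 and day 42 values of the rule itself. Among genes that were not members, they were 1 of 12 for capillary endothelium and 0 of 11 for alveolar macrophages. For club and secretory cells, ciliated cells and monocyte-derived macrophages they were 0 of 10 each.

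Genes of endothelial cells were also among the members. Emcn, endomucin of capillary and venous endothelium, had its lowest median on day 7. Its lowest, median and highest levels were 45.4, 62 and 77.6 CPM in CTRL, 30.6, 37.5 and 58.6 at day 7, 27.7, 49.8 and 62 at day 14, 50.1, 59.3 and 75.1 at day 21, 60.6, 71.2 and 92.6 at day 35 and 53.6, 77.5 and 97.6 at day 42. Days 7 and 35 did not overlap (edgeR, log2 fold change 0.87 ± 0.11 (SE), adjusted p = 1.70e-08), while of 12 capillary endothelium marker genes 1 rose and 3 fell in the same comparison, with a median of -0.09. Edn1, the vasoconstrictor endothelin-1, was higher by 0.46 (edgeR adjusted p = 0.0461), a call lost in 12 of 22 fits that left out 1 mouse.

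Immune members included Fpr1 (formyl peptide receptor of phagocytes), Clec9a (a receptor of cross-presenting dendritic cells), Siglecf (a lectin of alveolar macrophages and eosinophils) and H2-Eb2 (an MHC class II gene). Fpr1 was at 2.48, 4.32 and 7.98 CPM (lowest, median, highest) on day 7, 5.59, 9.63 and 24.9 at day 21, 4.96, 9.49 and 14.9 at day 28 and 4.87, 8.45 and 23.1 at day 35, overlapping ranges with an increase of 0.94 ± 0.22 (SE), adjusted p = 9.67e-04 from day 7 to day 35 in edgeR. Clec9a was at 3.41 to 7.43 CPM on day 7 and 7.72 to 16.8 at day 35, without overlap, and rose by 0.94 ± 0.22 (SE), adjusted p = 0.00102 in edgeR. The own counts of Clec1b, on the same strand, came to 68% of those of Clec9a, and the share of each in overlapping reads is uncertain. Siglecf (0.10, edgeR adjusted p = 0.722) and H2-Eb2 (0.46, edgeR adjusted p = 0.17) did not pass for day 35 against day 7.

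The 40 members without an assigned role ranged from -0.25 to 0.85 in log2 fold change for day 35 against day 7, with 19 higher (10.4% of all genes) and none lower (13.7% of all) in edgeR. Pdzk1ip1, a small membrane protein of epithelia, had lowest, median and highest levels of 14.2, 17.5 and 21.6 CPM in CTRL, 13.9, 16.9 and 27.6 at day 7, 11.7, 20.7 and 25.7 at day 35 and 19.6, 24.4 and 29.5 at day 42, and its log2 fold change was 0.17 ± 0.20 (SE), adjusted p = 0.551 in edgeR. Plcb1, a phospholipase C that signals downstream of receptors, was at 13.8, 31.4 and 46.5 CPM at day 7, 45.4, 51.2 and 66.2 at day 21 and 38.3, 53.9 and 65 at day 35 (edgeR, 0.85 ± 0.15 (SE), adjusted p = 1.81e-05). Dram1, a regulator of autophagy, was at 282, 334 and 388 CPM at day 7, 235, 373 and 454 at day 21 and 331, 429 and 488 at day 35 (edgeR, 0.35 ± 0.10 (SE), adjusted p = 0.00802).

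Across all members, day 35 against day 7 gave the most calls. In edgeR, 46 of 100 members were higher on day 35 at an adjusted p under 0.05, when 10.4% of the 16221 genes tested were called higher, and 1 was lower, when 13.7% were called lower. The log2 fold change was above 0 in 89 members and in 50% of all genes tested. Its median was 0.30 over the members and 0.00 over all genes. Of the 46 calls, 19 belonged to members without an assigned role, such as Ociad2 (0.79), Plcb1 (phospholipase C beta, 0.85) and Gap43 (a growth cone protein, 0.70). Beside this difference, all 11 cell cycle genes tested were lower on day 35 than on day 7 (median -1.15). The summed CPM of 10 monocyte-derived macrophage markers ranged from 1774 to 3215 at day 7 and from 1202 to 4679 at day 35. Whether cell makeup differed between these days, and any part of it in the members' change, was not tested.

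**Figure D4:**
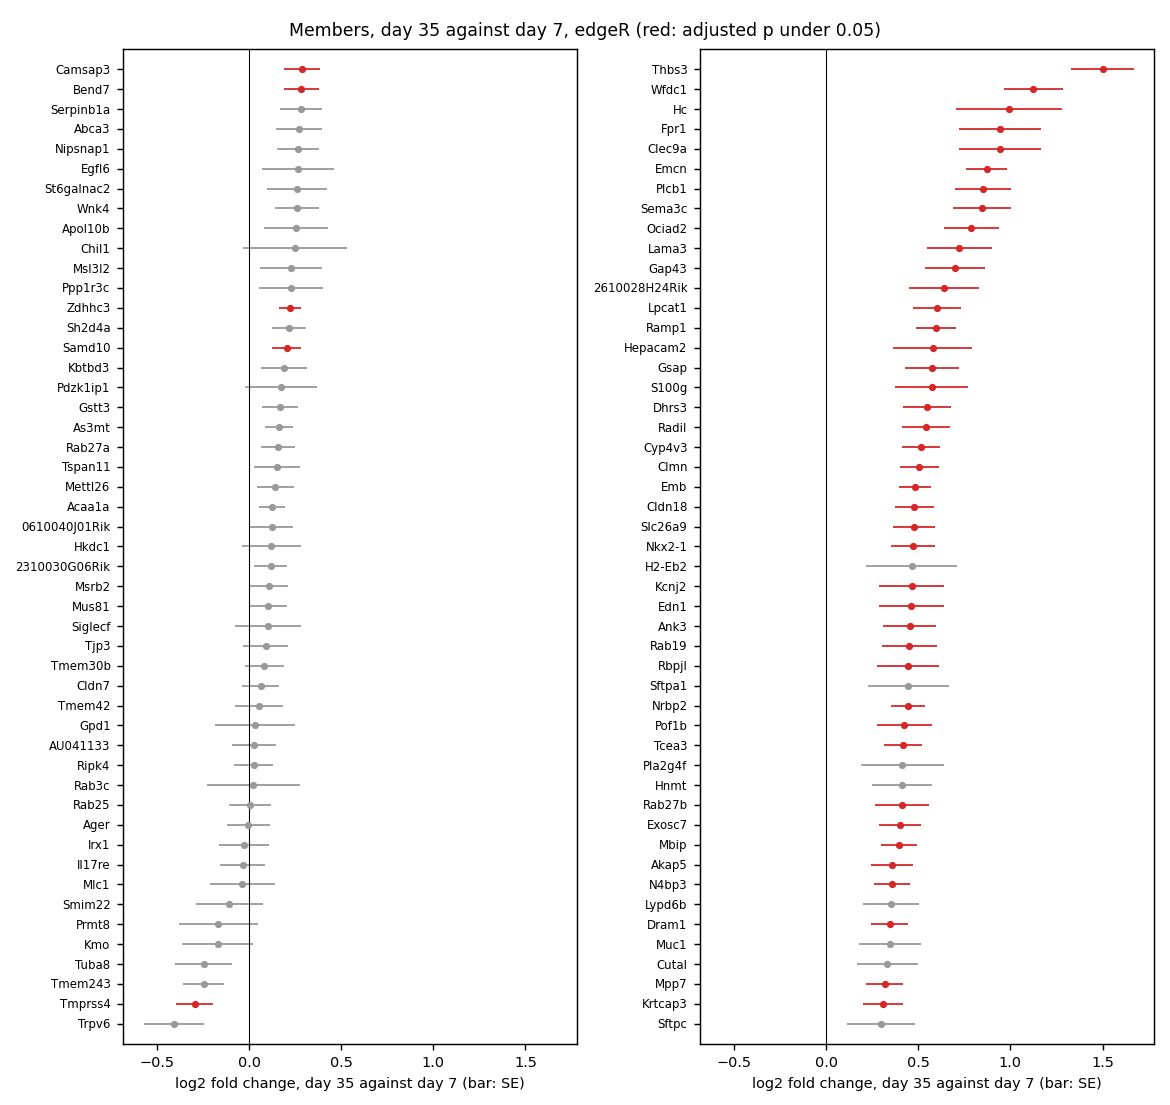
Log2 fold change of 98 of the 100 members for day 35 against day 7 in edgeR (points; bars, SE; red, adjusted p under 0.05), sorted by size in a pair of panels. The 45 drawn members called higher reach 1.5 (Thbs3), and the only red point left of 0 is Tmprss4 at -0.30.

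The single steps between these days called few members. For day 21 against day 7, edgeR called 16 members higher (7.50% of all genes tested) and 3 lower (6.37% of all), with a median of 0.13. The lower ones were Tmprss4 (-0.47), Tmem243 (-0.42), a transmembrane protein gene, and Tuba8 (-0.57), an alpha tubulin. The own counts of Dmtf1, on the strand opposite Tmem243, came to 47.5% of those of Tmem243. The higher ones included Fpr1 (1.3), Thbs3, Plcb1 (0.87), Wfdc1 (0.77) and Lpcat1 (0.41, lost without day 21 mouse 4). For day 28 against day 21 no member was called in edgeR in either direction (0.413% of all genes higher, 0.314% lower), and 1 was higher and 0 lower at an unadjusted p under 0.05. DESeq2 called none either. For day 35 against day 28, 89 of 100 member log2 fold changes were above 0, when 44% of those of all genes tested were. Their median was 0.14. Of the members, 1 was called higher (0.808% of all genes) and none lower (0.462% of all). That member was Lypd6b, a Ly6 domain protein gene (edgeR, 0.53 ± 0.15 (SE), adjusted p = 0.0469), and the call was lost in 16 of 24 fits that left out 1 mouse each. At an unadjusted p under 0.05 there were 14 higher and 0 lower. The shares of all genes at that unadjusted threshold were not counted for either step.

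Within a day, mice that were low for one member tended to be low for most. Over the 46 mice of days 7, 21, 28 and 35, with the mean of each day removed, the Pearson correlation of a member with the mean of the other 99 had a median of 0.69, and 81 members reached 0.5. Of the 11918 other genes at the same level, 9.24% reached 0.5 with the mean of the members. The closest followers were Dram1 (an autophagy regulator, 0.94), Sftpc (0.93), Mlc1 (0.92), Ociad2 (0.92), Hc (0.92) and Nkx2-1 (0.91), which share libraries and so are described without a test. The 4 surfactant genes lay between 0.81 and 0.93. The 7 members under 0.2 included Apol10b (0.12), H2-Eb2 (0.07), Plcb1 (0.06), Kmo (-0.04), Fpr1 (-0.36) and Edn1 (-0.46). Of the 5 immune and 2 endothelial members, Siglecf, Clec9a and Emcn were above 0.2. Among these 4 days the correlation was closest where mice spread most, with a median of 0.87 on day 21 and 0.74 on day 28. It was 0.38 on day 7 and 0.41 on day 35, and day 14, with the widest spread, was not included.

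**Figure D5:**
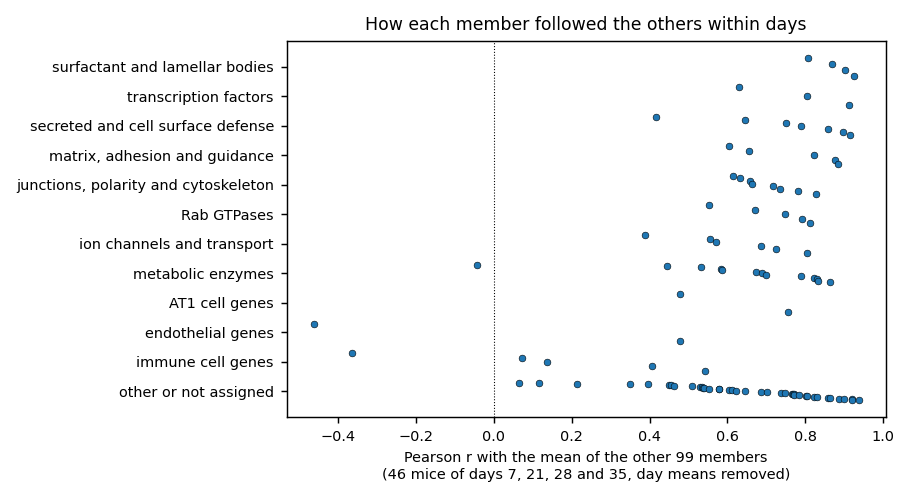
Pearson r of each member with the mean of the other 99 over 46 mice of days 7, 21, 28 and 35 with day means removed, by role (1 point per gene). Surfactant genes lie between 0.81 and 0.93, while Edn1 (-0.46) and Fpr1 (-0.36) lie left of 0.

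The members moved with AT2 genes that the rule did not take. With day means removed, the mean of the 8 other AT2 markers correlated at 0.97 with the mean of the members over the same 46 mice, the 8 other AT1 markers at 0.69, the other epithelial ion channel genes at 0.76, alveolar fibroblasts at 0.68 and capillary endothelium at 0.57. Further positive values were 0.53 for NK cells, 0.51 for ciliated cells and 0.50 for platelets, with 0.17 for club and secretory cells. Negative values included lymphatic endothelium (-0.76), Col1a1, the main fibrillar collagen chain (-0.75), and Wnt and BMP ligands and antagonists (-0.65). Others were glucocorticoid and stress response genes (-0.59), smooth muscle (-0.47), monocyte-derived macrophages (-0.46) and cell cycle genes (-0.43). Correlation with total counts was 0.14. The summed CPM of the 8 other AT2 markers was 7361 to 9419 in CTRL, 7904 to 9864 at day 7, 2873 to 9301 at day 14, 4510.3 to 10629 at day 21, 4825 to 11032 at day 28, 6933 to 11200.0 at day 35 and 8635 to 10772 at day 42. None of these markers was at 0 in a group, and their part in the members' spread was not tested. For day 35 against day 7 none of the 8 passed the edgeR test in either direction, with log2 fold changes from -0.15 (Sftpd) to 0.40 (Etv5), whereas Lpcat1 among the 4 AT2 members did.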

How the data were processed

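The authors dissected the inferior lobe, isolated RNA, prepared directional libraries and sequenced them on a NextSeq instrument. Per the submitters' processing notes, reads were aligned with STAR 2.7.0f to GRCm38. The program, strand setting and treatment of multiply mapping reads behind the counts are not given in the sources used here. The deposited table holds whole-number raw counts per gene for 75 libraries, with no normalization and no column of another sample. Gene names and coordinates came from GENCODE M21, of the same build.

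CPM was computed from total counts, with a pseudocount of 1 on the log2 scale. Members and gene lists were chosen with earlier results of these data known. Roles were assigned after values had been seen. Tests used edgeR 4.0.16 in R 4.3.3 (quasi-likelihood F test, TMM factors, filterByExpr, 1 mean per group over all 75 libraries) with Benjamini-Hochberg adjustment over all 16221 genes and a threshold of 0.05, and the script was tested on simulated data. Named were the 20 top-ranked members, members in a marker list, ranks 99 to 102, and the 5 largest significant changes in each direction for day 35 against day 7. Other genes were named for their role or their value after values had been seen. Results of 2 single members are not reported here, and they are not drawn where genes are labelled. DESeq2 1.42.0, other scalings and filters, the replicate block and omission of single mice were alternatives. Each library is a separate mouse. Total counts of 9240291 to 14665247 set the counting precision, and the spread between mice exceeded it.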

Additional observations from a re-analysis of the deposited data

Results flagged for a closer look

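For 33 named members and the mean of all members, each in CTRL, day 7 and day 42, 5 sets of values held a mouse that stood apart from the others by Dixon's criterion. Chance flags about 1 in 20 such sets, which comes to 5.1 here, so the number found is close to the number chance gives. On day 7, Wfdc1 was at 11.1 CPM in mouse 5 (others 19.2 to 35.0) and Gap43 at 4.72 CPM in the same mouse (others 10.6 to 21.8). On day 7, S100g was at 42.7 CPM in mouse 3 (others 14.3 to 23.8) and Slc26a9 at 31 CPM in the same mouse (others 40.2 to 48.6). On day 42, H2-Eb2 was at 11.5 CPM in mouse 3 (others 4.21 to 6.45).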

How the results depend on the processing

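For day 35 against day 7, members called higher numbered 36 to 47 under 7 alternatives of tool, scaling, filter, samples and replicate block, against 46. With an absolute log2 fold change of at least 0.5 there were 22. The background of 10.4% of all genes called higher belongs to the main fit. Shares of all genes under the alternatives and omissions are not given here, so their counts cannot be set against a background. Leaving out 1 mouse in turn gave 38 (without day 7 mouse 5) to 46, and 36 members were called in every such fit, while the calls of Samd10, Kcnj2, Rbpjl and Edn1 were each lost in 12 to 16 of 22 fits. Members called lower numbered 0 with the fold change minimum, 2 when only days 7, 21, 28 and 35 were fitted and 1 to 3 when 1 mouse was left out (3 without day 7 mouse 1, 2 without day 7 mouse 2 or 4 or day 35 mouse 7 or 9). Of the 47 calls, 37 were kept in each of the 7 alternatives. For day 21 against day 7, the fold change minimum left 10 members higher and 1 lower, and leaving out 1 mouse gave 13 to 18 and 3 to 4. The single call for day 35 against day 28 was lost (0) with library size only, with no filter, with at least 10 counts in every mouse and with days 7, 21, 28 and 35 alone, and leaving out 1 mouse gave 0 to 2, with 0 in 16 of 24 fits. The cause of these shifts was not tested. For day 28 against day 21, every alternative and every omission of 1 mouse gave 0 members.

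Among same-numbered mice of different days, 66 correlations of deviations ranged from -0.41 to 0.57, with a median of -0.02, and 22 exceeded 0.1. Mice of different numbers were not compared, so whether the numbers pair mice was not tested. With the replicate block, 40 members were higher and 1 lower for day 35 against day 7, and the other counts stayed at 16, 3, 0, 0, 1 and 0. Under the replicate block the log2 fold change for day 35 against day 7 turned negative for Rab3c (-0.095), AU041133 (-0.000302), Rab25 (-0.0451) and Ripk4 (-0.0161). For Ager it turned positive in DESeq2 (0.00916) and with at least 10 counts in every mouse (0.00931). None of these 5 had passed the test. The rule itself returned 96 of the 100 members with TMM-scaled CPM, 96 with a pseudocount of 0.25, 82 with a mean CPM of at least 1 and 67 with group medians. Leaving out 1 mouse of CTRL, day 14 or day 42 returned 82 to 97, the lowest without day 14 mouse 8. Scaling by TMM moved the median of all genes by less than 0.1.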
